A study of Mus musculus with 12 samples.

Results

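The activin, Nodal and follistatin genes described here are Inhba and Inhbb, which encode the subunits of activins, Nodal, follistatin (Fst), and the Nodal antagonists Lefty1 and Lefty2. They were followed in differentiating mouse embryonic stem (ES) cells. Every probe set whose only gene symbol in the platform annotation was one of these 6 names was taken, which gave 10 of the 45101 probe sets of the array, or 6 of 18193 genes with such a probe set: 2 each for Inhba, Inhbb, Fst and Nodal, and 1 each for Lefty1 and Lefty2. The rule takes every such probe set whatever its values, but the genes themselves were picked with earlier results of these data known.

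All cells carried the rtTA activator, which switches on a tetracycline-controlled gene when doxycycline (Dox) is present, and all were differentiated as a monolayer in N2B27, a serum-free medium used for neural conversion. The rtTA-Dmrt5 line has in addition an inducible Dmrt5 (now called Dmrta2, which encodes a transcription factor active in the developing forebrain and midbrain), and the rtTA line is its parent. RNA of 12 samples in 6 groups of 2 was measured, 1 array each: parental cells were harvested at day 7 only, the rtTA-Dmrt5 line at days 7 and 9, each either untreated or given Dox from day 5 on. The labels do not say how many clones the rtTA-Dmrt5 line stands for or whether the 2 replicates came from separate cultures. The p-values below therefore measure the spread between these samples, which may be technical. Each value is a log2 signal from which the median of that probe set over the 12 arrays had been taken away, so arrays can be compared within a probe set but the genes cannot be ranked by abundance. The digits of the values still show a coarse class of brightness, given with each gene, and larger values are taken as more RNA.

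The targeted gene went against its label. Dmrta2 read 1.91 and 1.85 on the rtTA-Dmrt5 arrays labelled -Dox at day 7 and -0.14 and -0.95 on those labelled +Dox, a difference of -2.42 ± 0.33 (SE, limma adjusted p 0.00318). At day 9 the difference was -2.61 ± 0.33 (limma adjusted p 0.000823). Parental arrays gave a difference of 0.10 ± 0.33 (limma adjusted p 0.989). Without Dox at day 7, Dmrta2 was already 1.92 ± 0.33 higher in rtTA-Dmrt5 than in parental cells (limma adjusted p 0.00323). No source used here gives the stretch of the transcript that the probe set reads, so whether it can read the transgene is unknown, and the groups are called throughout by their labels (arrays labelled +Dox or -Dox). The 2 arrays of a group correlated at r 0.579 to 0.737 over all probe sets. Groups of 2 arrays that are called separate below are so described without a test. With Dox in parental cells, Fst 1421365_at, Lefty2, Inhba 1422053_at and Inhbb 1426859_at were also separate, and none had a limma adjusted p under 0.05.

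Activins and Nodal are secreted ligands of the TGF-beta family. They bind type II and type I activin receptors, Nodal also needs the co-receptor Cripto (Tdgf1), and the activated receptors send Smad2 and Smad3 with Smad4 to the nucleus, where Foxh1 and other partners guide them to target genes. Follistatin traps activin outside the cell, and Lefty proteins block Nodal and are themselves switched on by it; this pathway drives formation of mesoderm and endoderm, and it is held low when ES cells become neural. In bulk RNA, fewer cells of a type and less RNA per cell cannot be told apart.

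Probe set 1426858_at of Inhbb rose 2.18-fold at day 7 and 7.26-fold at day 9 in rtTA-Dmrt5 cells, while its sister subunit Inhba passed the test in no comparison. Both Fst probe sets fell at day 7 and rose at day 9. Lefty2 rose at day 9, and Nodal and Lefty1 passed no Dox test but were lower in rtTA-Dmrt5 than in parental cells. In the parental line, measured at day 7 only, 0 of the 10 probe sets passed the Dox test. Their differences ran from -0.28 to 0.39, which does not show that they were unchanged. The day 9 Dox responses have no parental arrays to be set against. Of all 45037 probe sets tested (limma, Benjamini-Hochberg adjusted p under 0.05), the share called higher and lower with Dox was 1.26% and 1.79% at day 7 and 10.3% and 7.95% at day 9. Of the 10 described here, 1 rose and 2 fell at day 7, and 4 rose and 0 fell at day 9, with medians of 0.05 and 0.56 where all probe sets had 0.01 and -0.022. In the parental line 0% were called in either direction, and 2323 probe sets had an unadjusted limma p under 0.05.

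The start-site sequences of the activin subunit genes are shown as a description, and their part in any Dox difference was not tested. Inhbb passed the Dox test with 1426858_at and not with 1426859_at. Both Inhba probe sets, which passed no test, are of log2 level 2 to 4, where a change may not show. RefSeq's promoter table (build GRCm38.p6) matched 3 of the 6 genes, namely Inhba, Inhbb and Nodal. The 250 bases before each start are printed 5′ to 3′ on the gene's own strand, and capitals mark CG dinucleotides. The Inhbb stretch lies at chr1:119422249-119422498 on the minus strand and the Inhba stretch at chr13:16011601-16011850 on the plus strand.
Inhbb: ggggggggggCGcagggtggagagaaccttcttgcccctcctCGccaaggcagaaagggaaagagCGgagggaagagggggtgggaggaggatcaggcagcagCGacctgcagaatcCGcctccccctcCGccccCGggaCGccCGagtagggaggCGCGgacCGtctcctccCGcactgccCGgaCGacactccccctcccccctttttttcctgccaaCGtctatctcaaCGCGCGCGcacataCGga
Inhba: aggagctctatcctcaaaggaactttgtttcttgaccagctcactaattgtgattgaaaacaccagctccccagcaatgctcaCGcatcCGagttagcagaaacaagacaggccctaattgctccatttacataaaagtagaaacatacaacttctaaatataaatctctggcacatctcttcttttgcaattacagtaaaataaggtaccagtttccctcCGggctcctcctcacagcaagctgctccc
The Inhbb stretch holds 21 CG dinucleotides and is 68.0% G or C, the Inhba stretch holds 3 and is 43.2% G or C, and over 32851 such stretches the medians are 6 and 52.4%. The Nodal stretch, at chr10:61417722-61417971 on the plus strand, holds 3 and is 53.2% G or C. A GC box (GGGCGG, either strand) starts 122 bases before the start of Inhbb and is found in 32.7% of stretches. The letters TATAAA, known from TATA boxes and searched on either strand, start 91 bases before the start of Inhba and are found in 12.4%. Whether they act as a TATA box at that distance was not tested. Letters known from Dmrt sites (ACATTGT, in 2.56% of stretches), Smad sites (CAGAC, in 42.2%) and Foxh1 sites (AATNCACA, in 3.18%), searched on both strands, are in none of the 3 stretches, which says only that these letters are not in these windows.

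Inhbb encodes the beta B subunit of activin B. On rtTA-Dmrt5 arrays its probe set 1426858_at, of log2 level 4 to 8, read -0.32 and -0.40 at day 7 labelled -Dox and 0.85 and 0.68 labelled +Dox. At day 9 it read 0.17 and 0.21 labelled -Dox, against 2.99 and 3.11 labelled +Dox. The groups did not overlap at either day, and the day 9 arrays labelled +Dox stood above all other arrays. The difference was 1.12 ± 0.14 at day 7 (SE, limma adjusted p 0.00217) and 2.86 ± 0.14 at day 9 (limma adjusted p 9.03e-06). Both calls held under all 20 alternative settings, although the mean of both Inhbb probe sets lowered the differences to 0.53 and 1.45.

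Parental cells did not show this Dox difference past the test. Inhbb 1426858_at read -0.57 and -0.34 on the rtTA arrays labelled -Dox and -0.54 and -0.17 on those labelled +Dox, which overlap, a difference of 0.10 ± 0.14. The response of rtTA-Dmrt5 cells at day 7 exceeded that of parental cells by 1.02 ± 0.20 (limma adjusted p 0.0496). This was 1 of the 10 probe sets called in that test of the difference, where 0.300% of all probe sets were called higher and 0.739% lower. The call was lost when any array other than rtTA +Dox replicate 2 was left out, and over all alternatives the adjusted p ran from 0.0294 to 0.464. With both Inhbb probe sets averaged the difference was 0.28.

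The Inhbb response was larger at day 9 than at day 7. The test of the difference between the days gave 1.74 ± 0.20 (limma adjusted p 0.0136), and it passed under 15 of 20 alternatives. It did not pass without any single rtTA-Dmrt5 day 7 array or without day 9 -Dox replicate 1 (adjusted p up to 0.0736). Inhbb also rose between the days, by 2.29 ± 0.14 on arrays labelled +Dox (limma adjusted p 7.98e-05) and by 0.55 ± 0.14 on those labelled -Dox (limma adjusted p 0.0451). The second of these was lost without any array other than the rtTA +Dox pair, with only the arrays compared, with the replicate block (limma adjusted p 0.0545) and with both Inhbb probe sets averaged (adjusted p up to 0.221). Averaging both brought the difference between the days' responses to 0.92 and the changes between the days to 1.16 labelled +Dox and 0.24 labelled -Dox. In order of mean, the groups were rtTA day 7 -Dox (-0.46), rtTA-Dmrt5 day 7 -Dox (-0.36), rtTA day 7 +Dox (-0.35), rtTA-Dmrt5 day 9 -Dox (0.19), day 7 +Dox (0.76) and day 9 +Dox (3.05). The lowest 3 groups overlapped, and each of the 3 above was separate from its neighbours.

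The other Inhbb probe set showed none of this. Probe set 1426859_at, also of log2 level 4 to 8, lay between -0.24 and 0.29 on all 12 arrays. Its difference with Dox was -0.07 ± 0.16 at day 7, 0.04 ± 0.16 at day 9 and 0.39 ± 0.16 in parental cells (limma adjusted p 0.947). The 2 probe sets correlated at r 0.062 over the 12 arrays, so the Inhbb changes rest on 1 probe set, and the stretch of transcript that each reads is not given here.

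Inhba encodes the beta A subunit of activin A. Probe set 1422053_at lay between -0.16 and 0.38 over the 12 arrays, and 1458291_at between -0.12 and 0.48. Both belong to the class of log2 level 2 to 4, where a change in RNA may leave little mark. The difference with Dox was -0.20 and 0.11 at day 7 and -0.28 ± 0.11 (limma adjusted p 0.114) and -0.06 ± 0.19 at day 9. The span of the 6 group means was 0.409 and 0.275, against 3.51 for Inhbb 1426858_at. The 2 Inhba probe sets correlated at r -0.469 over the arrays.

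**Figure D1:**
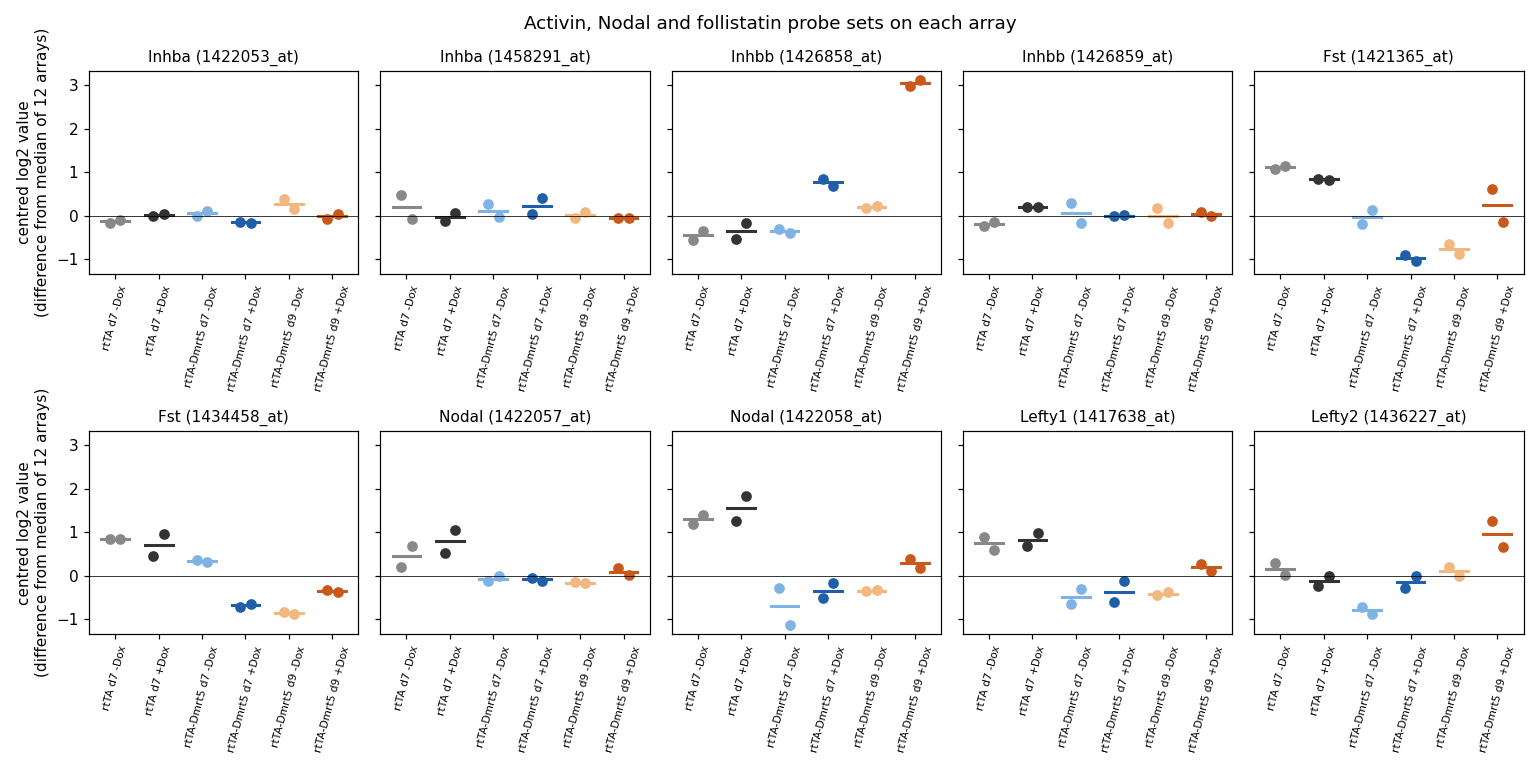
Centred log2 value (vertical axis) of each of the 10 probe sets on each of the 12 arrays, by group; points are arrays and bars are means of 2 arrays. Inhbb 1426858_at reaches 2.99 and 3.11 on the rtTA-Dmrt5 day 9 arrays labelled +Dox, while both Inhba probe sets stay between -0.16 and 0.48, and Nodal and Lefty1 are highest on the 4 parental arrays.

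Follistatin is the extracellular trap of activin. On rtTA-Dmrt5 arrays of day 7, Fst 1434458_at, of log2 level at least 8, read 0.36 and 0.33 labelled -Dox and -0.71 and -0.64 labelled +Dox. Fst 1421365_at, of log2 level 4 to 8, read -0.20 and 0.14 labelled -Dox and -0.91 and -1.04 labelled +Dox. The groups were separate for both probe sets, and Fst was lower on the arrays labelled +Dox. The difference was -1.02 ± 0.15 for 1434458_at (SE, limma adjusted p 0.00451), which held under all 20 alternatives. It was -0.95 ± 0.22 for 1421365_at (limma adjusted p 0.0476), a call lost without any array other than the rtTA-Dmrt5 day 9 +Dox pair and under 14 of 20 alternatives in all, with adjusted p from 0.00196 to 0.291.

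In parental cells the Dox difference of Fst was -0.27 ± 0.22 for 1421365_at and -0.13 ± 0.15 for 1434458_at (limma adjusted p 0.947 and 0.956). The day 7 response of rtTA-Dmrt5 cells minus that of parental cells was -0.67 ± 0.30 for 1421365_at (limma adjusted p 0.417) and -0.89 ± 0.21 for 1434458_at (limma adjusted p 0.0958). The fall of Fst was thus not shown to differ between the lines, though 1434458_at passed that test without rtTA +Dox replicate 1 (-1.14, limma adjusted p 0.0168).

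By day 9 the direction had turned. Fst 1434458_at read -0.83 and -0.88 on arrays labelled -Dox and -0.33 and -0.36 on those labelled +Dox, 0.51 ± 0.15 higher (limma adjusted p 0.0368). Fst 1421365_at read -0.66 and -0.87 labelled -Dox and 0.62 and -0.14 labelled +Dox, 1.01 ± 0.22 higher (limma adjusted p 0.0108). The groups were again separate, though the +Dox pair of 1421365_at was wide apart, and leaving out its replicate 1 brought the difference to 0.63. The call for 1421365_at was lost without day 9 -Dox replicate 2 and with only the arrays compared (adjusted p up to 0.069). The call for 1434458_at was lost without any array other than the rtTA +Dox pair and passed under 8 of 20 alternatives (adjusted p from 0.00291 to 0.131).

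The day 9 response minus the day 7 response of Fst was 1.95 ± 0.31 for 1421365_at (limma adjusted p 0.0295) and 1.54 ± 0.21 for 1434458_at (limma adjusted p 0.0186). With Inhbb, these are the 3 of 10 probe sets called higher in that test, against 0.324% of all probe sets called higher and 0.315% lower. For 1421365_at the call was lost without any array other than the rtTA +Dox and rtTA-Dmrt5 day 9 +Dox pairs (adjusted p up to 0.121). For 1434458_at it was lost without any rtTA-Dmrt5 array other than day 9 +Dox replicate 2 (adjusted p up to 0.0921). Each single array left out kept the sign of both.

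What happened without Dox enters this turn. Between day 7 and day 9 on arrays labelled -Dox, Fst 1434458_at fell by 1.20 ± 0.15 (limma adjusted p 0.00125), or 2.30-fold, under all 20 alternatives. Fst 1421365_at differed by -0.74 ± 0.22 (limma adjusted p 0.0707). On arrays labelled +Dox, 1421365_at rose by 1.22 ± 0.22 (limma adjusted p 0.00786). That call was lost without day 7 +Dox replicate 2 and with only the arrays compared (adjusted p up to 0.0668), and leaving out day 9 +Dox replicate 1 brought the rise to 0.77. For 1434458_at the difference on arrays labelled +Dox was 0.33 ± 0.15, which did not pass (limma adjusted p 0.207). Fst on the parental arrays was higher than on any rtTA-Dmrt5 array: 1421365_at read 0.83 to 1.15 on them and at most 0.62 elsewhere. For 1434458_at the parental values of 0.46 to 0.97 also lay above the highest other value of 0.36. The Fst probe sets correlated at r 0.871 over the 12 arrays.

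Nodal, the ligand itself, was highest in the parental line. On the day 7 arrays labelled -Dox, Nodal 1422058_at, of log2 level 4 to 8, read 1.19 and 1.40 in rtTA cells and -0.27 and -1.13 in rtTA-Dmrt5 cells. The groups were separate, and the difference was -1.99 ± 0.27 (SE, limma adjusted p 0.000929), or 3.98-fold lower in rtTA-Dmrt5 cells, under all 19 alternatives. The mean of both Nodal probe sets brought it to -1.25. Nodal 1422057_at, of log2 level at least 8, read 0.21 and 0.68 in rtTA and -0.12 and -0.01 in rtTA-Dmrt5 cells, a difference of -0.51 ± 0.19 (limma adjusted p 0.0921).

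With Dox, Nodal 1422058_at differed by 0.35 ± 0.27 at day 7 (limma adjusted p 0.616) and by 0.62 ± 0.27 at day 9 (limma adjusted p 0.143). At day 9 it read -0.35 and -0.32 labelled -Dox and 0.40 and 0.17 labelled +Dox, which do not overlap, but the difference did not pass. The values for 1422057_at were -0.02 ± 0.19 and 0.25 ± 0.19. In parental cells the differences were 0.26 for 1422058_at and 0.35 for 1422057_at. The Nodal probe sets correlated at r 0.881, and the group means of 1422058_at spanned 2.25 log2 units against 0.951 for 1422057_at.

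Lefty1 and Lefty2 are neighbouring genes on the same chromosome whose products restrain Nodal, with 1 protein-coding gene starting between them in the RefSeq table. Lefty1 (1417638_at, log2 level 4 to 8) read 0.89 and 0.60 in rtTA cells labelled -Dox at day 7 and -0.64 and -0.31 in rtTA-Dmrt5 cells. Its difference was -1.22 ± 0.19 (limma adjusted p 0.00192), or 2.33-fold lower in rtTA-Dmrt5 cells, a call that held under all 19 alternatives. With Dox it differed by 0.11 ± 0.19 at day 7, where the groups overlapped, and by 0.60 ± 0.19 at day 9 (limma adjusted p 0.0519). At day 9 Lefty1 read -0.45 and -0.36 labelled -Dox and 0.27 and 0.12 labelled +Dox. Its day 9 value passed under some alternatives, such as the recovered level of at least 4 (limma adjusted p 0.0358).

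Lefty2 (1436227_at, log2 level 4 to 8) rose with Dox at day 9. It read 0.21 and 0.00 on rtTA-Dmrt5 day 9 arrays labelled -Dox and 1.25 and 0.66 on those labelled +Dox, which are separate. The difference was 0.85 ± 0.20 (limma adjusted p 0.0166), or 1.80-fold. It was lost without day 9 -Dox replicate 2 or +Dox replicate 1, the latter bringing it to 0.55, and with only the arrays compared (adjusted p up to 0.102). At day 7 Lefty2 read -0.71 and -0.87 labelled -Dox and -0.27 and -0.00 labelled +Dox, a difference of 0.65 ± 0.20 (limma adjusted p 0.137).

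Lefty2, like Inhbb 1426858_at, also rose between the days in both Dox states. The rise was 0.90 ± 0.20 on arrays labelled -Dox (limma adjusted p 0.0232) and 1.09 ± 0.20 on those labelled +Dox (limma adjusted p 0.0089). The first was lost without any single array of the 4 compared (adjusted p up to 0.138), and the second without day 7 +Dox replicate 1 or with only the arrays compared (adjusted p up to 0.0724). In rtTA-Dmrt5 cells labelled -Dox at day 7 Lefty2 was -0.95 ± 0.20 against parental cells (limma adjusted p 0.00898; up to 0.076 without rtTA -Dox replicate 1 or rtTA-Dmrt5 day 7 -Dox replicate 2, either of which ended the call). On the parental arrays themselves it read 0.30 and 0.02 labelled -Dox and -0.24 and -0.01 labelled +Dox.

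**Figure D2:**
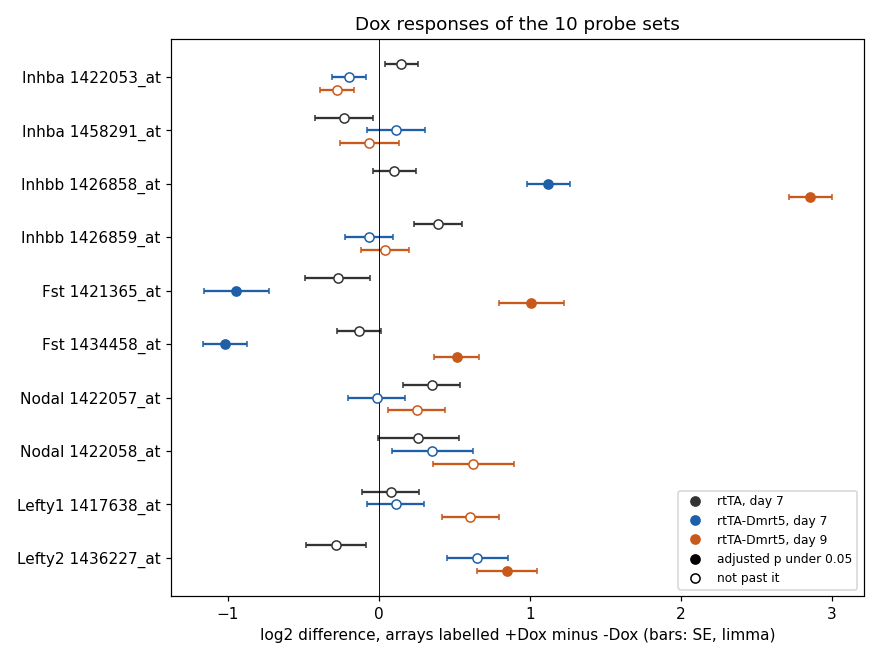
Log2 difference between arrays labelled +Dox and -Dox (horizontal axis, bars are standard errors from limma) for the 10 probe sets in parental cells at day 7 and rtTA-Dmrt5 cells at day 7 and day 9; filled points passed adjusted p 0.05. No parental point is filled, Inhbb 1426858_at lies at 1.12 and 2.86, and both Fst probe sets lie below 0 at day 7 and above it at day 9.

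Counted over the comparisons between days, 2 of the 10 probe sets rose and 1 fell on arrays labelled -Dox, where 4.29% of all probe sets rose and 3.37% fell. On arrays labelled +Dox 3 rose and 0 fell, against 5.18% and 3.92% of all. Between the lines at day 7 without Dox, 0 were higher and 5 lower in rtTA-Dmrt5 cells, where 8.72% of all were higher and 9.95% lower. Those 5 were Nodal 1422058_at, Lefty1, Lefty2 and both Fst probe sets, with Fst at -1.14 ± 0.22 (1421365_at, limma adjusted p 0.00543) and -0.51 ± 0.15 (1434458_at, limma adjusted p 0.0386). The latter was lost without any array of rtTA -Dox, of rtTA-Dmrt5 day 7 or of rtTA-Dmrt5 day 9 -Dox (adjusted p up to 0.157), and was -0.82 with both Fst probe sets averaged. The median difference of the 10 probe sets was -0.51, and that of all probe sets was -0.001.

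The rest of the pathway was read from 4 lists with 56 measured genes and 107 probe sets. Between the lines without Dox, 12 of the 107 were higher and 25 lower in rtTA-Dmrt5 cells, where 8.72% of all probe sets were higher and 9.95% lower. Among ligands and inhibitors (4 higher and 6 lower of 25), Gdf3, a ligand that works with Nodal, was -2.75 ± 0.24 (limma adjusted p 6.16e-05), and the Nodal inhibitor Cer1 was -1.32 and -0.98. The follistatin-like gene Fstl5 was 2.31 and 0.64 higher, and Inha, the inhibin alpha subunit, 1.14 higher. Among receptors (2 higher and 4 lower of 23), the Nodal co-receptor Tdgf1 was -2.75 ± 0.12 (limma adjusted p 1.73e-06), Tgfbr2 was 0.88 and 0.67 higher, and Acvr1 was -0.80. The DNA-binding partner Foxh1, with 3 probe sets at -3.23, -2.46 and -1.54, led the 7 lower of 41 for Smads and partners, where the 2 higher were both of Pmepa1, a feedback inhibitor of the pathway (1.42 and 0.84). Of the target genes, 4 were higher and 8 lower of 18. Mixl1, a mesendoderm gene, was -3.33 ± 0.26 (limma adjusted p 3.3e-05) and Nanog, a pluripotency factor, -2.42, while the endoderm factor Sox17 was 3.76 and 1.98 higher. The target list thus moved both ways, with a median of -0.446.

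Alongside this, the ES cell marker list, which shares Nanog with the targets, averaged 0.256 to 0.454 on the parental arrays and -0.837 to -0.765 on the rtTA-Dmrt5 day 7 arrays labelled -Dox. Of its 14 probe sets 2 were higher and 9 lower, where, as for the lists that follow, 8.72% of all probe sets were higher and 9.95% lower. The primitive and visceral endoderm list, which shares Sox17 and Gata6, averaged -0.951 to -0.748 on the parental arrays labelled -Dox and -0.034 to 0.025 on those of rtTA-Dmrt5, with 11 higher and 1 lower of 28. The simple epithelium list went from -0.975 to -0.646 up to -0.091 to -0.060, with 5 higher and 2 lower of 9. Nodal and Lefty1, both active in ES cells, had their highest values on the parental arrays, where the ES cell list was highest at day 7. On the rtTA-Dmrt5 day 9 arrays labelled +Dox that list averaged 0.313 to 0.353, within the parental range. There Nodal 1422058_at read 0.40 and 0.17, against 1.19 to 1.84 on the parental arrays. Lefty1 read 0.27 and 0.12 there, against 0.60 to 0.98. In the line comparison the crest and mesenchyme list had 6 higher and 1 lower of 18, and the neural progenitor list 2 and 4 of 14. The neuron list had 1 and 4 of 16, and the endothelium list 1 and 0 of 5. The difference between the 3′ and 5′ control probe sets of Actb, a sign of RNA quality, averaged -0.323 in parental cells labelled -Dox and 0.057 in rtTA-Dmrt5 cells labelled -Dox at day 7, and that of Gapdh -0.108 and 0.046. The part of cell makeup or of RNA quality in the line difference was not tested.

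With Dox at day 9, 21 of the 107 probe sets were higher and 5 lower, against 3 and 1 at day 7. Parental cells, measured at day 7 only, gave 0 and 0. Of all probe sets, as given above, 10.3% were higher and 7.95% lower at day 9 and 1.26% and 1.79% at day 7, so all probe sets too had more calls at day 9. Targets led, with 8 higher and 3 lower of 18 and a median of 0.397 where all probe sets had -0.022. Foxa2, an endoderm and floor plate factor, was 1.74 ± 0.20 higher (limma adjusted p 0.000499), Gata6 1.34, Sox17 1.06 and 0.92, and Eomes 0.96, while the head genes Lhx1 (-0.98 and -0.94) and Otx2 (-0.97) were lower. Among ligands and inhibitors 5 were higher and 1 lower of 25, among them Tgfb2 (1.11 and 0.55), Tgfb3 (1.03 ± 0.16, limma adjusted p 0.00212) and the decoy receptor Bambi (1.04 ± 0.17, limma adjusted p 0.0028). The receptors that passed were Tgfbr3 (1.28), Tgfbr2 (1.22) and Acvr1 (0.78) upwards and Tgfbr1 (-0.95) downwards. Each passed with 1 probe set, and the other probe sets of these genes did not. The Tgfbr1 value is from a probe set of log2 level 2 to 4. Its probe set of level at least 8 read 0.00 and -0.13 labelled -Dox and -0.27 and -0.23 labelled +Dox. Of 41 probe sets for Smads and partners 5 were higher and 0 lower, with Foxh1 at 0.93 and 0.63.

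Acvr1b, Acvr2a and Acvr2b, which are among the receptors that bind activin, and the signal carriers Smad2 and Smad3 passed no Dox test. Their 12 probe sets lay between -0.35 and 0.33 at day 7 and between -0.40 and 0.28 at day 9. Acvr1c, also in the receptor list, passed none either, and all its probe sets were below log2 level 4. At day 7 the probe sets that passed were Foxa2 (1.25), Tgfbr3 (0.64) and the convertase Pcsk6 (0.63) upwards and Fstl5, a follistatin-like gene, at -1.998. In the test of the difference between days Eomes (0.94) and Lhx1 (-1.25) passed, and in that between lines 0 of the 107 did. Between day 7 and day 9, 8 of the 107 rose and 4 fell on arrays labelled -Dox, led by Lhx1 (2.04 and 1.97) and Tdgf1 (1.52). Of all probe sets 4.29% rose and 3.37% fell there. On arrays labelled +Dox 13 rose and 4 fell, led by Fstl5 (2.90 and 1.03), Tdgf1 (1.34) and Gdf3 (1.22), where 5.18% of all rose and 3.92% fell.

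**Figure D3:**
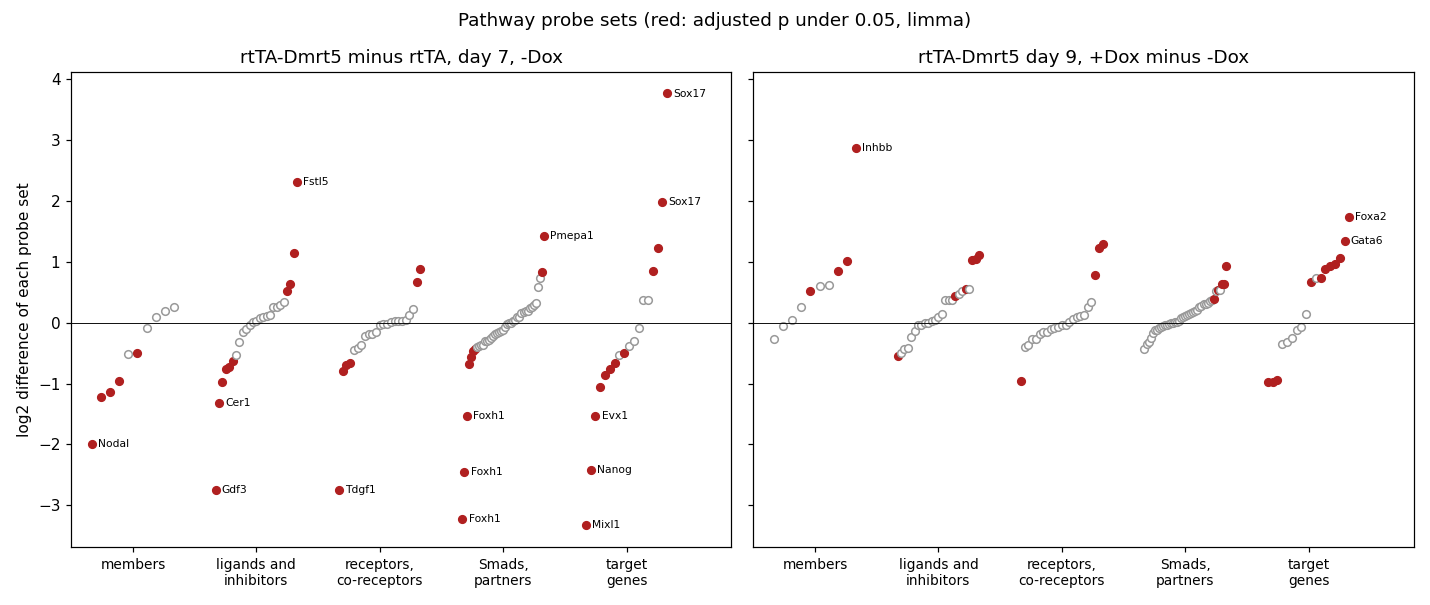
Log2 difference (vertical axis) of each probe set of the 6 genes and of the 4 pathway lists, for rtTA-Dmrt5 minus rtTA cells labelled -Dox at day 7 (left) and for +Dox minus -Dox at day 9 (right); red points passed adjusted p 0.05 and the largest are named. On the left Nodal (-1.99), Gdf3, Tdgf1, Foxh1 and Mixl1 lie low and Sox17 high, and on the right Inhbb (2.86) and Foxa2 (1.74) lie highest.

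The marker lists moved with Dox as well. Of all probe sets, 10.3% were higher and 7.95% lower at day 9, and 1.26% and 1.79% at day 7. At day 9 the endoderm list averaged 0.624 to 0.860 on arrays labelled +Dox and -0.046 to 0.044 on those labelled -Dox, with 16 higher and 0 lower of 28. The simple epithelium list averaged 0.581 to 0.820 against -0.596 to -0.364, with 8 higher of 9, and the ES cell list 0.313 to 0.353 against -0.211 to -0.104, with 8 higher of 14. The neuron list averaged -0.120 to 0.000 against 0.426 to 0.447, with 6 lower of 16. The crest and mesenchyme list had 6 higher of 18, the neural progenitor list 3 higher and 3 lower of 14, and the endothelium list, 4 of whose 5 probe sets were below log2 level 4, 1 higher. At day 7 with Dox the same 7 lists, in the order ES cell, endoderm, neural progenitor, neuron, crest and mesenchyme, epithelium and endothelium, had 4, 3, 0, 1, 2, 2 and 1 higher and 0, 0, 4, 4, 0, 0 and 0 lower. On centred values no marker can be read as absent. The part of these cell types in the rise of Inhbb and Lefty2 was not tested.

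The hybridisation controls, 9 probe sets for RNA added at a fixed amount, averaged -0.792 and -0.672 on the day 9 arrays labelled +Dox, while the means of the other groups lay between -0.191 and 0.156. On the same arrays the difference between the 3′ and 5′ probe sets of Actb averaged 0.212, against -0.323 to 0.057 in the other groups. The part of either in the day 9 values was not tested.

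**Figure D4:**
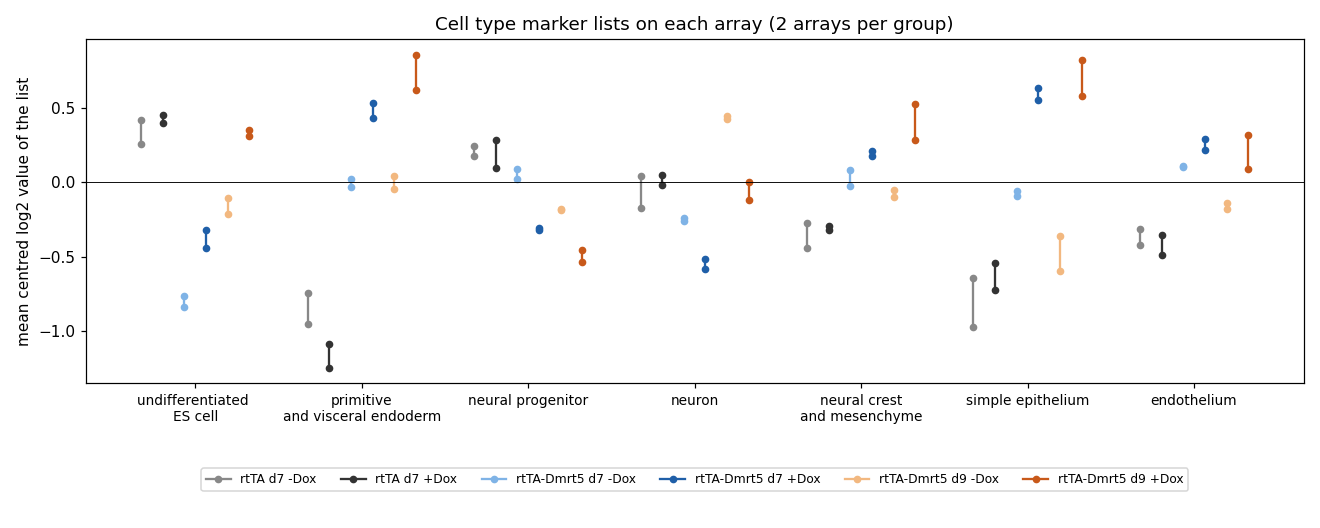
Mean centred log2 value (vertical axis) of 7 cell type marker lists on each array, with the 2 arrays of a group joined. The endoderm and simple epithelium lists lie higher on the rtTA-Dmrt5 arrays labelled +Dox at both days, and the ES cell list lies highest on the parental and the day 9 +Dox arrays.

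Among 5471 probe sets of 4144 genes whose own group means spanned at least 1 log2 unit, those that followed a member most closely over the 12 arrays are given as a description, since arrays share groups and processing. For Inhbb 1426858_at they were Ldb2 (r 0.975), Skap1 (0.974) and Nfib (0.974). For Nodal 1422058_at they were Pycard (0.971), Gdf3 (0.971) and Rab25 (0.970), and for Lefty1 they were Rps4l (0.966), Grhl2 (0.966) and Inpp5d (0.964). The Fst probe sets had different neighbours, Etv4 (0.958), Crip1 (0.949) and Syk (0.948) for 1421365_at and Castor1 (0.955), Rerg (0.954) and Aff1 (0.947) for 1434458_at. For Lefty2 they were Celrr (0.948), 1700025G04Rik (0.937) and Zfp612 (0.924).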

How the data were processed

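Total RNA (5 ng per sample) was amplified, labelled and hybridised to mouse Affymetrix arrays, per the labels. The authors made the deposited log2 values with RMA (version not given), per the submitters' processing notes. No source names the base of the log, and it is taken as 2 because RMA is so defined. Each deposited probe set has a median of 0 over the 12 arrays (within 5e-07), a centring that no source used here mentions. The arrays' number limits the precision.

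Symbols came from the platform annotation: 34945 probe sets had 1, 932 several and 9160 none, with 64 controls left out; 34741 were found in RefSeq's table. limma 3.58.1 (R 4.3.3) was fitted to 45037 probe sets, with a mean per group, 6 residual and 3.92 prior degrees of freedom, and Benjamini-Hochberg adjusted p under 0.05. Each ± in the report is limma's standard error, with n of 2 arrays per group. The level class was read from the spacing of the digits.

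The members, the 4 pathway lists and the 7 marker lists were chosen with earlier results of these data known. All members are named, Dmrta2 as the check, pathway probe sets that passed by size (up to 6 per list), and the 3 genes most like each member that spans at least 1 log2 unit. Acvr1b, Acvr1c, Acvr2a, Acvr2b, Smad2 and Smad3 were added for their role. Some listed genes were not analysed here. Alternatives were gene means, only the arrays compared, the replicate number as a block, array weights, a robust prior, array medians at 0, a level of at least 4, each array left out and, added after seeing the data, the parental line left out. Python 3.11.15, pandas 2.3.3 and matplotlib 3.10.9 were used.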

Additional observations from a re-analysis of the deposited data

Results flagged for a closer look

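A test of the difference between responses singled out 4 results. The Dox response of Inhbb 1426858_at at day 7 was 1.02 (log2) larger in rtTA-Dmrt5 than in parental cells. The Dox response at day 9 exceeded that at day 7 by 1.95 for Fst 1421365_at, by 1.74 for Inhbb 1426858_at and by 1.54 for Fst 1434458_at. For Fst this is a turn from lower to higher, and for Inhbb a larger rise. With 2 arrays per group, single arrays that stand apart could not be tested for.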

How the results depend on the processing

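Of 1554 log2 differences of members under alternatives, gene means among them, 1372 counted as the same, 100 lost the call, 19 gained it, 62 moved without a call and 1 reversed. The same means a call kept in its direction or, without a call, a shift within the standard error. Direction was compared only where the main or the alternative result was called. The reversed value is Inhbb 1426859_at at day 7 with Dox, -0.07 by itself and 0.53 when averaged with the other Inhbb probe set (limma adjusted p 0.0261), which carries the change.

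Counts of the 10 probe sets called changed as follows. With only the arrays compared they were 1 in place of 4 for Dox at day 9, 1 in place of 3 between days with Dox, and 0 in place of 1 for the difference between lines. That difference also gave 0 with gene means, the replicate block, the robust prior and array medians at 0. Leaving out each array in turn gave 2 to 3 for Dox at day 7, 1 to 4 for Dox at day 9, 0 to 1 for the difference between lines, 0 to 3 for that between days, 1 to 3 between days without Dox, 2 to 3 with Dox and 3 to 6 between lines; parental cells gave 0 throughout.

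The replicate numbers showed no common pairing: over 15 pairs of groups the same-numbered arrays' deviations correlated at -0.166 to 0.167, with 2 over 0.1. Those 2 were the day 7 +Dox groups of both lines (0.167) and the rtTA-Dmrt5 day 9 groups (0.143). Such values cannot exclude that some samples were paired. With the replicate block the counts were 2 at day 7 and 4 at day 9 for Dox, 3 for the difference between days, 2 and 3 between days without and with Dox, and 5 between lines; of all probe sets it called 1157, 7583, 164, 3102, 3595 and 7781.

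Over all alternatives the probe sets called ran from 496 (without rtTA-Dmrt5 day 7 +Dox replicate 2) to 2666 (array weights) around 1372 for Dox at day 7, 3426 to 8831 around 8230 at day 9, 173 to 648 around 468 for the difference between lines, 5 (without rtTA-Dmrt5 day 7 -Dox replicate 1) to 629 around 288 for that between days, 1210 to 4446 around 3447 and 1299 to 5057 around 4098 between days without and with Dox, and 4100 to 10084 around 8408 between lines. Of the pathway probe sets, the 4 called for Dox at day 7 became 1 with only the arrays compared, 7 at a level of at least 4 and 9 with array weights. Having 2 arrays per group limits the precision, and probe sets of low level, such as both of Inhba, may show little of a change in RNA.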
